A study of Mus musculus with 4 samples.

Results

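The genes described here are the Zfp-numbered zinc finger genes that were expressed in cultured mouse T cells. Of 49671 genes in the deposited tables, 363 on chromosomes 1 to 19 carried a name made of Zfp and a number, with Zfp36 left out. The members were chosen by measured values, their level and their allelic read number: a gene was kept when its mean level over 4 replicates was at least 1 RPKM (reads per exon length and sequencing depth) and when at least 20 reads per replicate, on average, could be assigned to a parental allele. That left 181 genes, or 49.9% of the 363. Among all protein-coding genes on the same chromosomes, 43.0% passed the same minimums. Of the 181, 180 were annotated as protein coding, and Zfp783 was annotated as a transcribed pseudogene.

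The cells were splenic CD3+ T cells of female F1 mus x cast mice, whose mothers were C57BL/6 with a heterozygous Xist deletion and whose fathers were M. m. castaneus. The culture lasted 48 h, with 1 µg/ml of anti-CD3 on the plate, 10 µg/ml of anti-CD28 in solution and 2.5 µM of IMD-0354, an inhibitor of the kinase IKKβ that blocks NF-κB activation. All 4 biological replicates shared this genotype, stimulation and inhibitor, so the libraries hold 1 group, and the effects of stimulation or of the inhibitor on these genes were not measured here. The comparison that the cross allows is between the 2 alleles of each gene, the Castaneus allele from the father and the C57BL/6 allele from the mother. With 1 direction of the cross, a difference between strains and a difference between parents cannot be told apart.

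C2H2 zinc finger proteins carry repeated modules in which a pair of cysteines and a pair of histidines hold a zinc ion, and arrays of such fingers read DNA in a sequence-specific way. Many members of the family also carry a KRAB box, which recruits the corepressor TRIM28 and, through it, the histone methyltransferase SETDB1 and HP1 proteins, and these complexes silence retroelements and imprinted regions. KRAB zinc finger genes lie in tandem arrays that arose by repeated duplication and differ between mouse strains. Other members have few fingers and act in ribosome assembly, RNA handling or ubiquitin transfer.

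The allele tables held between 30539711 and 34992012 reads per replicate over all chromosomes, and the Castaneus share of autosomal allelic reads was 49.6% ± 0.0870 (SD, n = 4). Among autosomal genes with 20 to 39 allelic reads, 36.4%, 84.2%, 45.2% and 13.5% showed reads of 1 allele only in replicates 1, 2, 3 and 4. Taken as repeated reads of the same molecules, these shares correspond to an estimate of 11.4, 22.6, 13 and 7.19 reads per molecule, highest in replicate 2 and lowest in replicate 4. All 8 T cell markers were above 1 RPKM, between 8.79 and 65.6. The 3 NK cell markers stayed at 0.0895 RPKM or below. The 5 B cell markers lay between 0.418 and 2.37 RPKM, 3 of them above 1 RPKM. Erythroid markers, 3 in all, lay between 0.742 and 1.27 RPKM, 2 of them above 1 RPKM. Among myeloid markers Lyz2 had a mean of 41.3 RPKM, with a range of 18.8 to 74.4 over replicates, and Cd14 3.30 RPKM, while Csf1r, Itgam and Adgre1 were below 1 RPKM. The part of these other cells in the values below was not tested.

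The module that gives the family its name is shown here by the coding strand of finger 1 of Zfp141, a gene on chromosome 7 at chr7:42473386-42505740 (mm10, minus strand), chosen because its alleles differed in all settings tried. The finger lies at chr7:42475730-42475813, and capitals mark the codons of the 2 cysteines and 2 histidines that bind zinc. Sequences here come from GENCODE M21 coding sequences on mm10.
Zfp141 finger 1: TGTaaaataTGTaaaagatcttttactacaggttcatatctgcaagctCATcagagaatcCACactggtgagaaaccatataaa

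The KRAB A-box is the stretch by which these proteins contact TRIM28. Its coding strand is shown for Zfp141 and for 3 members with known targets: Zfp445 (chr9:122856727-122856810, minus strand), which keeps imprints, Zfp568 (chr7:29997765-29997848, plus strand), which represses a placental transcript of Igf2, and Zfp809 (chr9:22235035-22235118, plus strand), which silences retroviruses. The stretch of Zfp141 lies at chr7:42489463-42489546 on the minus strand. Capitals mark the tryptophan codon with which the planned search pattern begins and a pattern added later ends. Zfp445 and Zfp568 matched only the added pattern.
Zfp141 KRAB: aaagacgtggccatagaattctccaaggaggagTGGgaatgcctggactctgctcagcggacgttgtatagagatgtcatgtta
Zfp445 KRAB: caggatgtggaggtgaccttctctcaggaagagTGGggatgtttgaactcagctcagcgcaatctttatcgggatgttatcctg
Zfp568 KRAB: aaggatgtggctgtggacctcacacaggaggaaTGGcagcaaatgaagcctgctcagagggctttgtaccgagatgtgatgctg
Zfp809 KRAB: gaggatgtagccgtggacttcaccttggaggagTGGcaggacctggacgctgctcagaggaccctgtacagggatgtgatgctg

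The level served to choose the genes and is given as a description. Most members were expressed at low levels. Their mean levels ran between 1.01 and 39.8 RPKM with a median of 3.57, against a median of 7.16 RPKM over the 10268 autosomal genes past both minimums. Below 5 RPKM lay 109 members, or 60.2%, against 39% of all genes past the minimums, and 30 members reached 10 RPKM. Levels repeated well between animals: the median coefficient of variation over replicates was 10.6% for members and 10.8% for all genes, and 26 members exceeded 20%. In such bulk samples fewer cells expressing a gene and less RNA per cell cannot be told apart. Across members, log2(RPKM + 1) of any pair of replicates correlated with r between 0.978 and 0.990, a value across genes, which are not independent replicates.

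The highest levels belonged to members without a KRAB pattern, mostly ones with few fingers. Zfp598, the ubiquitin ligase that marks collided ribosomes, had 43.7, 40.5, 39.1 and 35.7 RPKM in replicates 1 to 4, a mean of 39.8 ± 3.32 (SD, n = 4). Zfp281, a transcriptional repressor known from embryonic stem cells, had 32.2, 34.7, 38.3 and 40.5 RPKM, with a mean of 36.4 ± 3.71 (SD, n = 4). These ranges overlapped, so the order of the top pair is not settled by these animals. Zfp292 had 27.6 ± 1.88 RPKM (SD, n = 4) and the RNA-binding protein Zfp106 25.2 ± 1.03 RPKM (SD, n = 4). Next came Zfp592, a chromatin protein found with ZMYND8, at 23.6 ± 3.04 RPKM, Zfp740 at 22.7 ± 0.868, Zfp622, which acts in the assembly of the large ribosomal subunit, at 21.5 ± 3.24, and Zfp511 at 21.1 ± 2.02 (SD, n = 4 each). Neighbours in this set of 4 did not differ beyond their spread. Zfp335, needed for T cell maturation, had 16.9, 21.8, 19.5 and 20.1 RPKM, a mean of 19.6 ± 2.01 (SD, n = 4). Zfp131 followed at 18.5 ± 1.33 RPKM (SD, n = 4).

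Other members with known roles filled the middle of the range. Zfp91, a ubiquitin ligase that acts on the kinase NIK in noncanonical NF-κB signalling, had 15.5, 17.8, 17.9 and 18.5 RPKM. Zfp143, an activator that binds promoters, varied more, with 12.2, 16.3, 18.5 and 19.1 RPKM. Zfp445 had 17.2 ± 2.30 RPKM (SD, n = 4) and was the highest member with a KRAB pattern. Zfp110, also called NRIF, had 13.8 ± 1.42 RPKM and Zfp638, which silences retroviral DNA together with the HUSH complex, 13.2 ± 1.23 (SD, n = 4 each). Zfp410, which in human and mouse cells controls the gene of the remodeller CHD4, had 9.01 ± 0.636 RPKM, while Chd4 itself, at 57.2 RPKM, was far above. Zfp318, known in B cells for the choice between IgM and IgD transcripts, had 7.68 ± 0.492 RPKM (SD, n = 4). Zfp809 had 5.69 ± 0.587 RPKM and Zfp568 2.53 ± 0.142 RPKM (SD, n = 4 each).

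**Figure D1:**
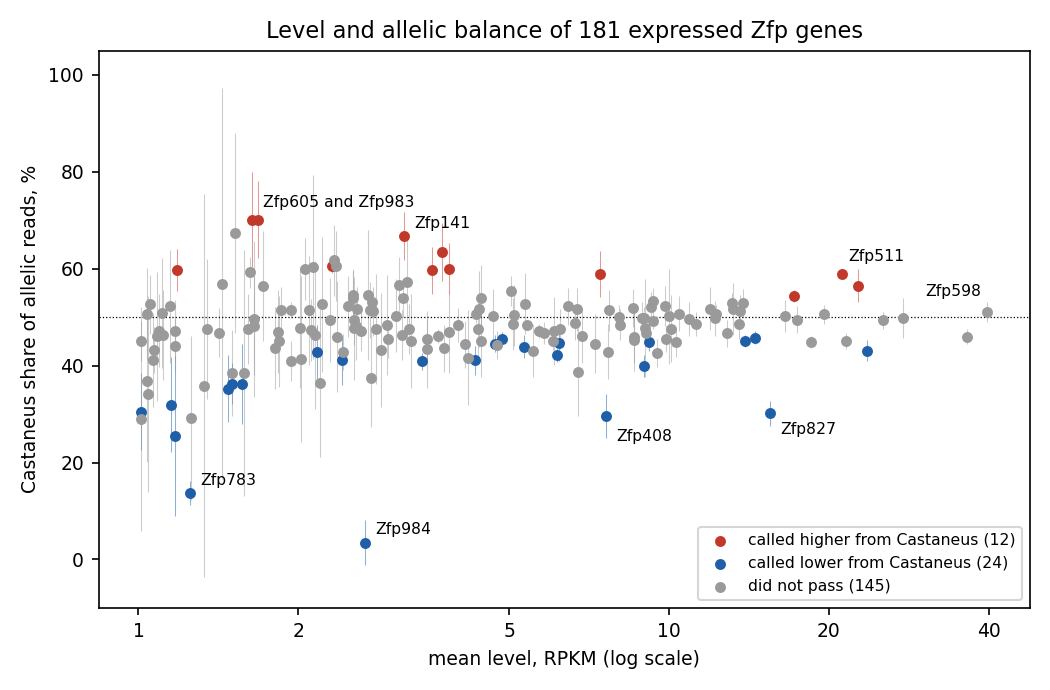
Each point is 1 of the 181 expressed Zfp genes, with its mean level in RPKM on a log axis and its mean Castaneus share of allelic reads in percent, and bars give the SD over 4 replicates (dotted line at 50%). Genes called higher from Castaneus are red, genes called lower are blue and the 145 others are grey. The shares fan out towards low levels, and Zfp984 at 3.43% and Zfp783 at 13.7% lie far below the rest.

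The minimums left out some genes by small margins. Just inside the RPKM minimum lay Zfp456, Zfp992 and Zfp287 at 1.01 RPKM each, and just outside it Zfp563 at 0.989, Zfp85 at 0.968 and Zfp974 at 0.964. Just inside the read minimum lay Zfp992 with a mean of 29.8 allelic reads, Zfp951 with 34 and Zfp784 with 39, and just outside it Zfp617 with 13.3, Zfp219 with 11.5 and Zfp207 with 2.25. A level well above the minimum did not ensure allelic reads: Zfp207, whose protein binds microtubules and the mitotic checkpoint protein BUB3, had 38.9 RPKM, and Zfp219 had 15.96 RPKM. In all, 9 Zfp genes passed the RPKM minimum alone, 95 the read minimum alone and 78 neither. Per kilobase of exon and RPKM, members held a median of 56.9 allelic reads and all genes past the minimums 53.4. The lowest value among members was 3.55, for Zfp52, with 9.47 RPKM and a mean of 106 allelic reads.

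Both alleles of the family were used about equally in most cases. Over the 181 members the median Castaneus share, each gene's mean over replicates, was 47.6%, against 48.9% over all 10268 autosomal genes past the minimums. The share lay between 40 and 60% for 151 members, or 83.4%, against 76.2% of all genes. It was above 60% for 9 members, or 4.97%, against 10.2% of all genes. Below 40% lay 21 members, or 11.6%, against 12.9% of all genes. By edgeR's quasi-likelihood test with the replicate as a block and Benjamini-Hochberg adjustment over all 10268 genes, 36 members were called at an FDR of 5%, or 19.9% of them, beside 28.1% of all genes. Of the 181 members, 12 were called higher from Castaneus, beside 12.4% of all genes. Lower calls numbered 24 of the 181, beside 15.6% of all genes. The balance of directions among all genes depended on the scaling. With another scaling (TMM), 14.4% of all genes were called higher and 13.2% lower. The other 145 members did not pass, which does not show that their alleles were equal. At an unadjusted p under 0.05 there were 54 members, or 29.8%, beside 38.0% of all genes.

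The members' share of calls was below the background in each range of read depth, with few called members per range. With 20 to 300 mean allelic reads it was 7.41% of members (2 of 27) against 14.0% of all genes. With 300 to 1000 reads it was 14.8% (9 of 61) against 23.7%, and with 1000 to 3000 reads 23.2% (16 of 69) against 28.7%. From 3000 reads the values were close, 37.5% (9 of 24) against 41.5%. These differences were not tested. The test p-values measure the spread between these 4 animals only. For 35 of the 36 called members the share lay on the same side of the autosomal share in 4 of 4 replicates, Zfp677 being the exception with 3 of 4. Calls depended on single libraries: 20, 40, 23 and 18 members were called without replicates 1, 2, 3 and 4. These were 11.05, 22.1, 12.7 and 9.9% of members, beside 19.8, 29.9, 21.3 and 19% of all genes. In 12 members the call was kept under each of 15 other settings in which the gene was tested: Zfp141, Zfp386, Zfp511, Zfp597, Zfp605 and Zfp740 among those higher, and Zfp68, Zfp287, Zfp408, Zfp592, Zfp783 and Zfp827 among those lower. DESeq2's Wald test called 55 members, or 30.4%, beside 37.1% of all genes.

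Among called members, the largest ratios towards Castaneus were those of Zfp605, Zfp983 and Zfp141. Zfp605, a KRAB zinc finger gene with 12 fingers on chromosome 5, had Castaneus shares of 65.9, 84.7, 66.8 and 63.1% in replicates 1 to 4, a mean of 70.1% ± 9.82 (SD, n = 4) at a level of 1.64 RPKM. Its log2 ratio of Castaneus over C57BL/6 was 1.30 (SE 0.28, adjusted p = 0.00570 by edgeR's quasi-likelihood test). Replicate 2 lay far above the other 3 animals, and without it the adjusted p was 0.00284. The exons of Zfp605 overlap Gm15484 on the opposite strand. Zfp141, with 10 fingers, had shares of 64.1, 65.2, 74.1 and 63.4%, a mean of 66.7% ± 4.99 (SD, n = 4). All 4 values were above 60%, with a log2 ratio of 1.03 (SE 0.16, edgeR adjusted p = 0.000644). It shares 17.4% of its coding 50-mers with other genes, 2610021A01Rik among them. Zfp983, in the chromosome 17 array, had shares of 60.4, 78.6, 67.7 and 73.8% on a mean of 195 allelic reads (log2 ratio 1.28, SE 0.41, edgeR adjusted p = 0.0395). That call was lost without replicate 1, 3 or 4, at edgeR adjusted p of 0.0742, 0.0831 and 0.189. Zfp983 overlaps CAAA01141682.1 on the same strand and shares 21.3% of its coding 50-mers with other genes.

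More moderate ratios followed, mostly with tighter replicates. Zfp597 had Castaneus shares of 64.2, 55.0, 69.0 and 65.8%, and its log2 ratio was 0.83 (SE 0.16, edgeR adjusted p = 0.00236). Its exons overlap those of Naa60, Zfp174 and Gm26675 on the opposite strand, and whether the authors' counting used strand is not given, so reads of the overlapping genes cannot be told apart. Zfp386, a KRAB member on chromosome 12, had 59.3, 62.0, 61.7 and 59.5%, a mean of 60.6% ± 1.42 (SD, n = 4; log2 ratio 0.64, edgeR adjusted p = 0.000983). Zfp511 had 60.1, 59.0, 58.8 and 57.8%, a narrow range above the autosomal share (log2 ratio 0.54, SE 0.08, edgeR adjusted p = 0.000382). It overlaps Tubgcp2 on the opposite strand. Zfp740 had 54.6, 61.5, 55.2 and 54.5% (log2 ratio 0.40, edgeR adjusted p = 0.00513), overlaps Csad on the opposite strand, and was highest in replicate 2.

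Zfp445, the imprint keeper, showed a small and even shift, with Castaneus shares of 53.6, 55.4, 55.2 and 52.8% on a mean of 7105 allelic reads (log2 ratio 0.27, SE 0.06, edgeR adjusted p = 0.00570). The call held without each replicate in turn, at edgeR adjusted p between 0.0101 and 0.0366, and was lost without the replicate block, at 0.0671. Zfp593, whose yeast counterpart acts on precursors of the large ribosomal subunit, had 52.5, 63.6, 59.1 and 60.4% (edgeR adjusted p = 0.0122, and 0.0742 without replicate 4). It shares 73.4% of its coding 50-mers with other genes, first with E130218I03Rik, whose exons overlap it on the opposite strand. Zfp523, Zfp770 and Zfp945 completed the 12, with mean Castaneus shares of 59.99%, 59.7% and 59.7%. Their edgeR adjusted p-values were 0.0221, 0.00832 and 0.0227. Zfp523 was lost without replicate 3 or 4 (0.0768 and 0.110), Zfp770 without replicate 1 (0.0622), and Zfp945 without replicate 1 or 3 (0.0936 and 0.108).

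Among members lower from Castaneus, Zfp783 stood out by size and repeatability. It had 79, 74, 124 and 75 Castaneus reads, against 568, 576, 610 and 446 C57BL/6 reads, in replicates 1 to 4. That gave Castaneus shares of 12.2, 11.4, 16.9 and 14.4%, all far below the autosomal share, and a log2 ratio of -2.64 (SE 0.21, edgeR adjusted p = 4.06e-06). The annotation gives it as a pseudogene at chr6:47943171-47955913 (mm10, plus strand) whose exons overlap those of Zfp956 on the same strand. Zfp956 itself had shares of 46.8, 44.1, 40.1 and 45.9%.

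Zfp827 and Zfp408 were the most expressed members with a strong bias. Zfp827, on chromosome 8, had 1366, 1238, 1705 and 1418 Castaneus reads, against 2752, 3335, 3759 and 3435 C57BL/6 reads, at 15.5 ± 2.03 RPKM (SD, n = 4). Its shares of 33.2, 27.1, 31.2 and 29.2% gave a log2 ratio of -1.19 (SE 0.08, edgeR adjusted p = 1.42e-06). It overlaps Gm45728 on the same strand. Zfp408, a gene of 10 fingers on chromosome 2 with no overlapping exon, had shares of 33.7, 23.2, 30.9 and 30.8% at 7.60 ± 0.747 RPKM (SD, n = 4). Its log2 ratio was -1.23 (SE 0.13, edgeR adjusted p = 3.23e-05), and no replicate came near the autosomal share. Zfp287, a KRAB member at the edge of the RPKM minimum, had 41.2, 26.2, 31.5 and 23.0% (log2 ratio -1.19, SE 0.24, edgeR adjusted p = 0.00318).

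**Figure D2:**
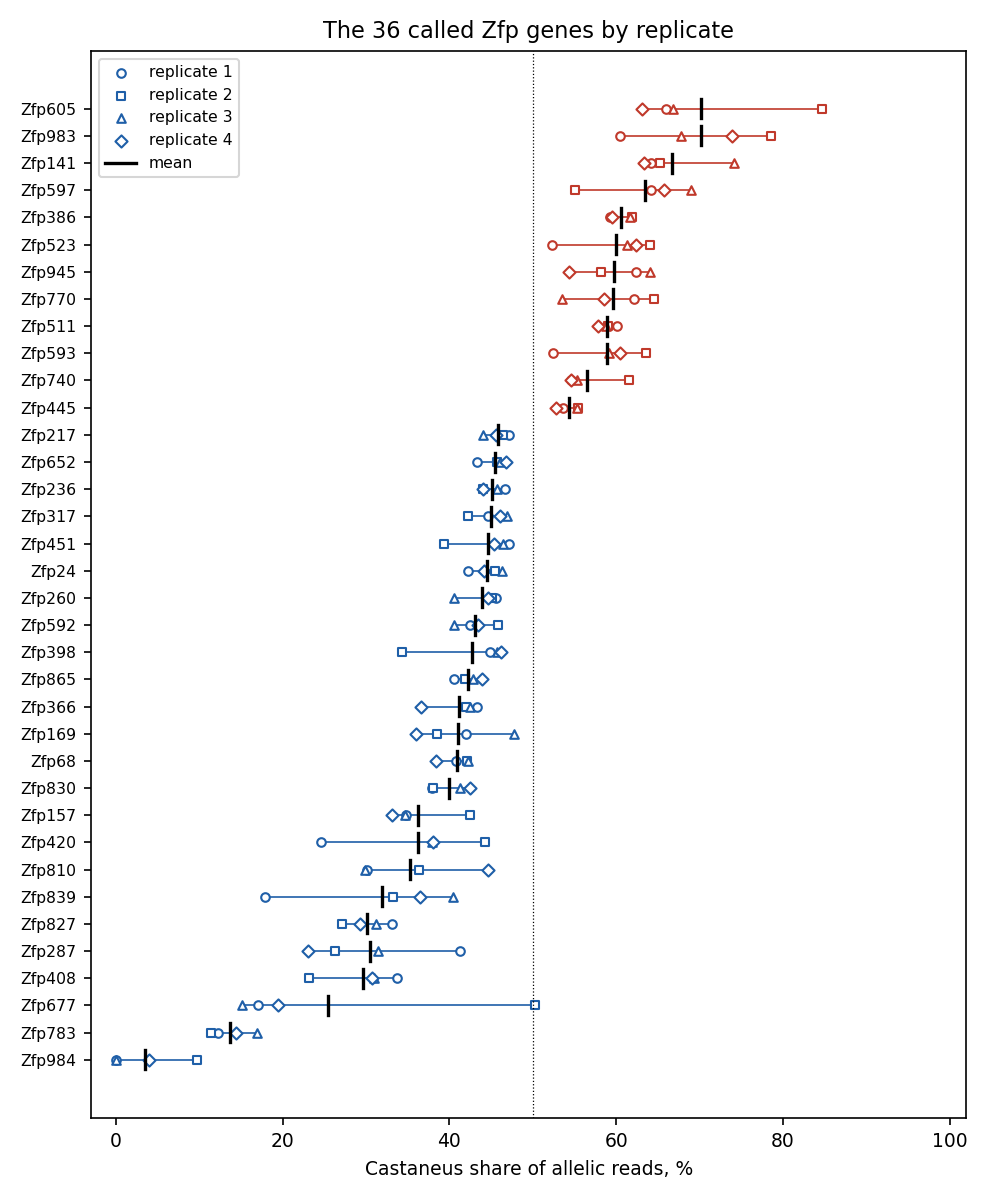
Castaneus share of allelic reads in percent for the 36 called Zfp genes, 12 higher in red and 24 lower in blue, with a symbol for each of the 4 replicates, a black bar at the mean, a line over the range and a dotted line at 50%. The replicates of Zfp511 span 57.8 to 60.1%, while those of Zfp677 span 15.1 to 50.2%.

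Several large ratios rested on few or uneven values. Zfp677, in the chromosome 17 array, had Castaneus shares of 17.1, 50.2, 15.1 and 19.4%, so replicate 2 stood apart from the other 3 animals (log2 ratio -1.70, SE 0.44, edgeR adjusted p = 0.0142). Without replicate 2 the adjusted p was 4.64e-05, and the call was lost without replicate 1, 3 or 4, at 0.101, 0.0832 and 0.0829. Zfp839, which carries no finger by the pattern used, had 17.8, 33.2, 40.4 and 36.4% (edgeR adjusted p = 0.0299, and 0.126 and 0.0755 without replicate 1 or 4). Zfp810 had 30.1, 36.4, 29.9 and 44.6% (edgeR adjusted p = 0.00990, and 0.0655 and 0.0548 without replicate 1 or 3). Zfp420 had 24.6, 44.3, 37.9 and 38.1% (edgeR adjusted p = 0.0172, and 0.0907 and 0.0576 without replicate 1 or 4). All replicates of these last 3 genes were nonetheless below the autosomal share.

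Zfp984 had the lowest share of all members and the least depth among the called ones. It had 0, 7, 0 and 1 Castaneus reads, against 38, 65, 83 and 24 C57BL/6 reads. The 0 of 38 reads in replicate 1 allows a share of up to 7.89% and the 0 of 83 reads in replicate 3 up to 3.61%, limits that cover counting error only, since reads of 1 molecule are not independent. The log2 ratio was -5.09 (SE 1.20, edgeR adjusted p = 0.00857), and the call was lost without replicate 1 or 3, at 0.0502 and 0.0521. Its level was 2.62, 2.56, 2.96 and 2.55 RPKM, with replicate 3 somewhat above the rest. Exons of Gm20707 overlap it on the same strand, and 66.1% of its coding 50-mers occur in transcripts of other genes, among them Zfp992.

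Zfp992 lies on the same chromosome and shows how alike the arrayed genes can be. It shares 84.1% of its coding 50-mers with other genes. Of 10 fingers of Zfp984 compared with the closest finger of Zfp992, the number of differing bases out of 84 was between 2 and 9. Finger 7 of Zfp984 (chr4:147755088-147755171, minus strand) and finger 2 of Zfp992 (chr4:146466631-146466714, plus strand) are shown on the coding strand, and capitals mark the 3 bases at which they differ.
Zfp984 finger 7: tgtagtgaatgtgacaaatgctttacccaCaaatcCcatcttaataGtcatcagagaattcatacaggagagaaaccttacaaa
Zfp992 finger 2: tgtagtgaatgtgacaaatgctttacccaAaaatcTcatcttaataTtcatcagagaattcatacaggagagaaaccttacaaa
Zfp992 had Castaneus shares of 0, 45.2, 50 and 20.7% on a mean of 29.8 allelic reads, and its difference from 1 was not called (edgeR adjusted p = 0.411). How reads that match several such genes were assigned is not given, so the values of both genes are uncertain.

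The other members called lower had mean Castaneus shares between 36.3% and 45.8%. Zfp157 had 34.9, 42.5, 34.7 and 33.1%, with a log2 ratio of -0.79 (SE 0.15, edgeR adjusted p = 0.00283, and 0.0765 without the replicate block). Zfp830, a splicing-linked protein with 1 finger, had 37.9, 38.0, 41.3 and 42.5% at 8.98 RPKM (edgeR adjusted p = 0.0117, and 0.0619 and 0.0512 without replicate 1 or 4). Zfp68 had 40.7, 42.1, 42.2 and 38.4% (log2 ratio -0.51, SE 0.10, edgeR adjusted p = 0.00319). Zfp592, among the 10 most expressed members, had 42.4, 45.8, 40.6 and 43.4% on a mean of 7972 allelic reads. Its log2 ratio was -0.38 (SE 0.06, edgeR adjusted p = 0.00111), a small difference that no replicate contradicted.

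The 11 called members not yet described had mean Castaneus shares between 41.1% and 45.8%. Zfp169, Zfp366, Zfp865 and Zfp398 had mean Castaneus shares of 41.1, 41.1, 42.3 and 42.7%. Zfp260, Zfp24, Zfp451, Zfp317, Zfp236, Zfp652 and Zfp217 had means between 43.9 and 45.8%. In this set Zfp451 is a SUMO ligase, Zfp217 works with the corepressor CtBP, and Zfp236 has 30 fingers, the most of any member. By edgeR each of the 11 lost its call when at least 1 replicate was left out. The highest such adjusted p per gene lay between 0.0501 for Zfp236 and 0.169 for Zfp169, in both cases without replicate 4. Zfp24, Zfp217, Zfp317, Zfp398 and Zfp652 also lost it with either other scaling, TMM or DESeq2 size factors. Zfp451 lost it with TMM (edgeR adjusted p = 0.0533). Without the replicate block Zfp24, Zfp217, Zfp236, Zfp317, Zfp366 and Zfp652 lost it as well. The level of Zfp217 was 14.5 ± 0.798 RPKM and that of Zfp236 13.9 ± 1.65 RPKM (SD, n = 4 each).

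Most members with well-known roles did not pass. Zfp598 had Castaneus shares of 47.9, 52.0, 52.4 and 51.9% and Zfp335 53.5, 49.9, 49.1 and 49.99%. Zfp106, the member with the most allelic reads, a mean of 17063, had 49.9, 46.8, 50.4 and 50.4%. Its log2 ratio was -0.01 (SE 0.05, edgeR adjusted p = 0.878). Exons of Zfp106 overlap Gm26899 on the opposite strand, and 40.6% of its coding 50-mers are shared with other genes, Gm26899 first. Those of Zfp335 overlap Pcif1 and Zfp335os on the opposite strand. Zfp91 had 47.8, 46.7, 52.7 and 50.7%, on both sides of the autosomal share. Zfp281, Zfp622 and Zfp131 lay below it in every replicate, with means of 45.9, 45.1 and 44.9% and edgeR adjusted p-values of 0.0895, 0.0537 and 0.0615. Among the members that silence repeats or imprinted genes, Zfp568 had 49.2, 61.1, 55.5 and 50.3%, Zfp809 48.1, 46.9, 45.3 and 48.6% and Zfp638 53.1, 46.0, 58.3 and 49.1%. None of these 3 was called.

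Levels of genes that work with the KRAB box were mostly above the members' median. From a list of 26 genes of the TRIM28, HUSH, NuRD and heterochromatin machinery, 25 were found on the autosomes and 22 were past both minimums. Trim28 had 58.7 ± 3.79 RPKM, Setdb1, the methyltransferase, 8.98 ± 0.162 RPKM, and Chd4 57.2 ± 2.75 RPKM (SD, n = 4 each). The median of the 25 was 12.6 RPKM, against 7.16 RPKM over all autosomal genes past both minimums. The members' median of 3.57 RPKM, itself lower than that of all genes, was exceeded by 23 of the 25. Among these 23 were Uhrf1 at 4.07 and Smarcad1 at 4.30 RPKM. The 2 below the members' median were Suv39h2 at 0.899 RPKM and Atf7ip2 at 0.0955 RPKM. Of the 22, 2 were higher from Castaneus, 2 were lower and 18 did not pass, so 18.2% were called beside 28.1% of all genes. Chd3, a NuRD remodeller, was higher with shares of 56.0, 57.7, 55.3 and 55.9% (log2 ratio 0.38, edgeR adjusted p = 0.000720). Fam208a, the HUSH subunit also called TASOR, was lower with 42.5, 39.5, 43.0 and 40.1% (log2 ratio -0.49, edgeR adjusted p = 0.000606). Atf7ip, the partner of SETDB1, had a mean share of 52.0% (edgeR adjusted p = 0.0163), with its call lost without replicate 3 (0.0823) and without the replicate block (0.292). Cbx5, the HP1α gene, had a mean of 45.3% (edgeR adjusted p = 0.0299), with its call lost without replicate 1, 3 or 4 (0.0798, 0.0919 and 0.189) and with either other scaling (0.0639 and 0.0714). Trim28 itself had 48.8, 55.8, 49.1 and 52.0% and was not called (edgeR adjusted p = 0.294).

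Members with and without a KRAB pattern had different median levels and similar shares of calls. A KRAB box that matched neither pattern searched would count as absent here. A KRAB A-box pattern was found in 77 members and not in 103, and Zfp783 has no coding sequence. Members with the pattern had a median of 2.31 RPKM and 11 fingers, and those without it 6.05 RPKM and 6 fingers. Of members with the pattern 5 reached 10 RPKM, against 25 of those without. In the whole Zfp family on these chromosomes, 77 of 194 genes with the pattern were among the expressed members, or 39.7%, against 103 of 162 without it, or 63.6%. The called share was 19.5% with the pattern, 6 higher and 9 lower, and 19.4% without it, 6 higher and 14 lower, both under the background of 28.1%. Read depth differed, with a median of 615.5 allelic reads with the pattern and 1519 without it. Called shares rose with depth, so these shares do not compare like with like. Median Castaneus shares were 47.6% with the pattern and 47.8% without it. Members with at least 10 fingers, 82 in all, had a median of 2.51 RPKM, and the 29 with at most 3 fingers 7.69 RPKM.

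Sequence shared with transcripts of other genes touched a minority of members. No coding 50-mer was shared with a transcript of another gene in 98 members, while 31 shared at least 10% of theirs and 7 at least 50%. These 7 were Zfp706, Zfp784, Zfp992, Zfp58, Zfp593, Zfp984 and Zfp524. The measure counts genes annotated over the same bases as well as similar genes elsewhere. Zfp593, Zfp524 and Zfp58 shared most with E130218I03Rik, Gm44973 and Gm26965, in that order, whose exons overlap theirs. Exons of 51 members overlapped a gene on the opposite strand and those of 20 a gene on the same strand. Among the 108 members free of such overlap and with under 10% sharing, 21 were called, or 19.4%, 4 higher and 17 lower. Among the other 73, 15 were called, or 20.5%, 8 higher and 7 lower, and both shares lay under the 28.1% of all genes. This split was added after the calls were seen, and its part in the calls was not tested.

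Expressed members concentrated on chromosomes 7 and 17. Chromosome 7 held 47 of them, or 26.0%, against 7.71% of all genes past the minimums, and chromosome 17 held 22, or 12.2%, against 5.13%. Chromosome 7 carries 91 of the 363 Zfp genes and chromosome 17 carries 41. Chromosomes 4 and 13, with 30 and 33 Zfp genes, gave 9 and 10 expressed members. Chromosome 10 had none among its 5. Median Castaneus shares of the members were 49.4% on chromosome 7 and 48.1% on chromosome 17, against 48.8% and 49.3% for all genes past the minimums there.

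**Figure D3:**
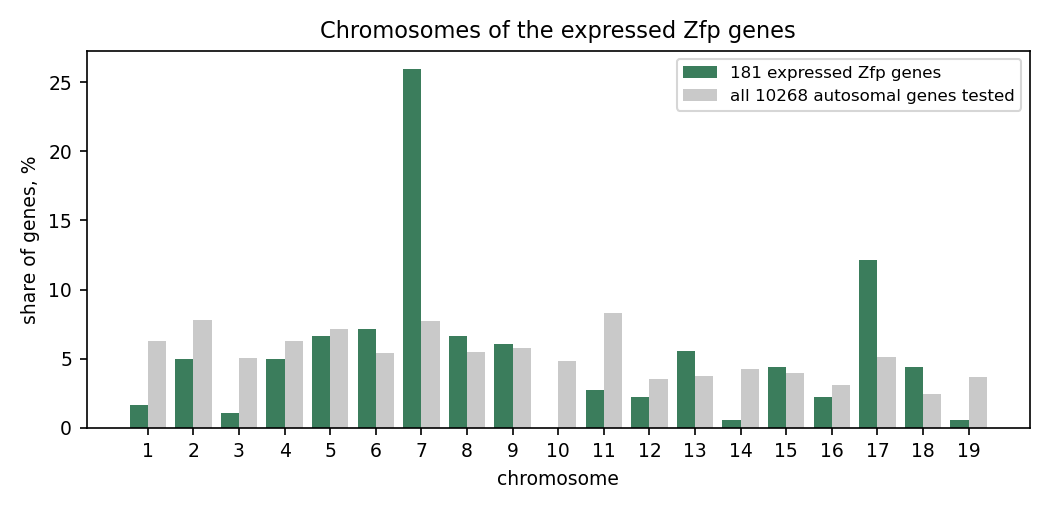
For each autosome, the green bar gives the percentage of the 181 expressed Zfp genes and the grey bar the percentage of all 10268 autosomal genes past the same minimums. Chromosomes 7 and 17 hold 26.0% and 12.2% of the members, and chromosome 10 holds none.

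When members whose starts lay at most 500 kb apart were chained and chains of at least 3 were kept, 17 clusters held 84 of the 181 members. Clustered members had a median of 2.48 RPKM, against 5.54 RPKM for the 97 others, and 55 of the 84 carried the KRAB pattern. Of the clustered members 12 were called, or 14.3%, and of the others 24, or 24.7%, beside 28.1% of all genes. The clustered members also had fewer allelic reads, a median of 671 against 1335.

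The largest cluster lay at chr17:21008903-22867134 and held 13 of the 20 Zfp genes there: Zfp160, Zfp677, Zfp51, Zfp53, Zfp52, Zfp948, Zfp983, Zfp760, Zfp942, Zfp943, Zfp944, Zfp758 and Zfp945. All 13 carried the KRAB pattern. Levels ran between 1.17 RPKM for Zfp677 and 9.47 RPKM for Zfp52. Mean Castaneus shares ran between 25.5% for Zfp677 and 70.2% for Zfp983, so calls in both directions stood in 1 array, with Zfp983 and Zfp945 higher and Zfp677 lower. The remaining 10 did not pass. Zfp760 and Zfp53 came nearest in opposite directions, with shares of 70.4, 64.6, 58.1 and 53.7% for Zfp760 and 45.6, 41.9, 25.3 and 41.8% for Zfp53 (edgeR adjusted p = 0.0829 and 0.0787).

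The next cluster, at chr7:29768552-30169750, held 10 of 15 Zfp genes, with Zfp568 among them. Its levels ran between 1.04 and 8.97 RPKM and its mean Castaneus shares between 34.2% and 54.0%. Called lower here were Zfp420 and Zfp260. Zfp566 had the lowest mean, with shares of 50, 4.6, 43 and 39.3%, of which replicate 2 alone was extreme, and it was not called (edgeR adjusted p = 0.274).

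At chr6:47835661-48086593 all 7 Zfp genes of the interval were expressed: Zfp398, Zfp282, Zfp212, Zfp783, Zfp956, Zfp777 and Zfp746. Zfp783 at 13.7% lay apart from its neighbours, whose mean Castaneus shares were between 42.7% and 53.0%. Zfp212 was the most expressed of them, at 13.1 ± 1.40 RPKM (SD, n = 4), with shares of 50.2, 54.9, 54.3 and 52.6%. At chr5:138139702-138619761 a cluster of 3 held Zfp157 and Zfp68, both called lower, and Zfp113, with shares of 35.2, 50.5, 56.7 and 42.8%.

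A further chromosome 7 cluster, at chr7:127233061-127885996, held 7 of 10 Zfp genes, none of them called. Zfp646, with 27 fingers, was its most expressed member at 12.3 ± 0.906 RPKM (SD, n = 4) and its shares of 49.2, 49.2, 53.3 and 50.7% were tight. Zfp629, in the same interval at 2.02 RPKM, had 57.8, 28.4, 24.8 and 54.4%. At chr7:4915217-5053723 all 6 Zfp genes were expressed. Zfp865 was the 1 called member there, and Zfp784, which shares 90.9% of its coding 50-mers with Zfp865 transcripts, had shares of 84, 0, 7.14 and 52.4% on a mean of 39 allelic reads. The 0 of 36 reads in replicate 2 allows a share of up to 8.33%.

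**Figure D4:**
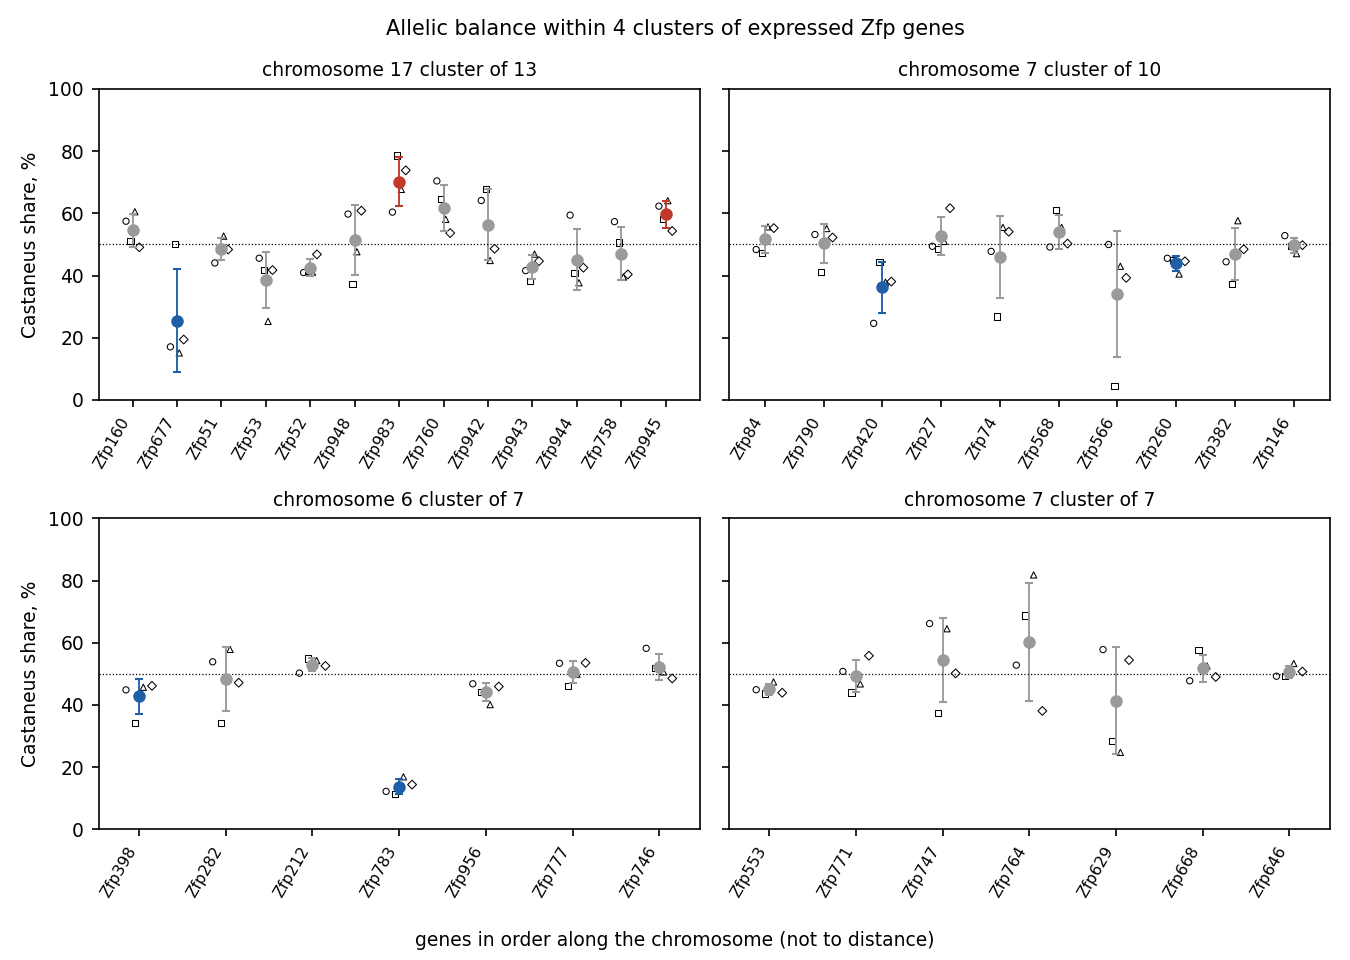
Castaneus share in percent for the genes of 4 clusters, in their order along the chromosome, with 1 open symbol per replicate, the mean as a filled point and its SD over 4 replicates as a bar (dotted line at 50%). Red and blue points are genes called higher and lower from Castaneus. In the chromosome 17 cluster means run between 25.5% and 70.2%, and in the chromosome 6 cluster Zfp783 alone is below 20%.

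The spread between animals followed read depth. The median SD of the Castaneus share was 19 percentage points for the 7 members with 20 to 100 mean allelic reads, 10.7 for the 20 with 100 to 300, 7.27 for the 61 with 300 to 1000, 4.09 for the 69 with 1000 to 3000 and 2.45 for the 24 with more. In the same ranges all genes past the minimums had 20.5, 11.1, 6.71, 4.00 and 2.10 points. Zfp407 was the steadiest, with 48.2, 47.9, 48.9 and 48.1% on a mean of 6309 reads.

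Among members with at least 100 reads, the widest were Zfp691, Zfp189, Zfp566, Zfp629 and Zfp608. Zfp691 had Castaneus shares of 34.1, 7.25, 68.5 and 44.0%, on both sides of the autosomal share. Zfp189 had 52.6, 71.1, 95.0 and 50.5%, above the autosomal share in 4 of 4 replicates, and was not called (log2 ratio 1.24, SE 0.77, edgeR adjusted p = 0.273). Zfp608 had 50.7, 32.3, 10.7 and 22.9% (log2 ratio -1.41, SE 0.50, edgeR adjusted p = 0.0606). Below 100 reads Zfp882 had 0, 90.0, 80.0 and 57.8%. Its 0 of 61 reads in replicate 1 allows a share of up to 4.92%. Among the 154 members with at least 300 reads, a replicate's share differed from the mean of the other 3 by a median of 4.04, 5.10, 3.77 and 2.57 points for replicates 1 to 4. The difference exceeded 10 points in 23, 36, 23 and 10 members. Replicate 2, with the most reads per molecule by the estimate given above, had the most such members, and replicate 4, with the fewest, the least. The part of read clumping in these values was not tested.

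**Figure D5:**
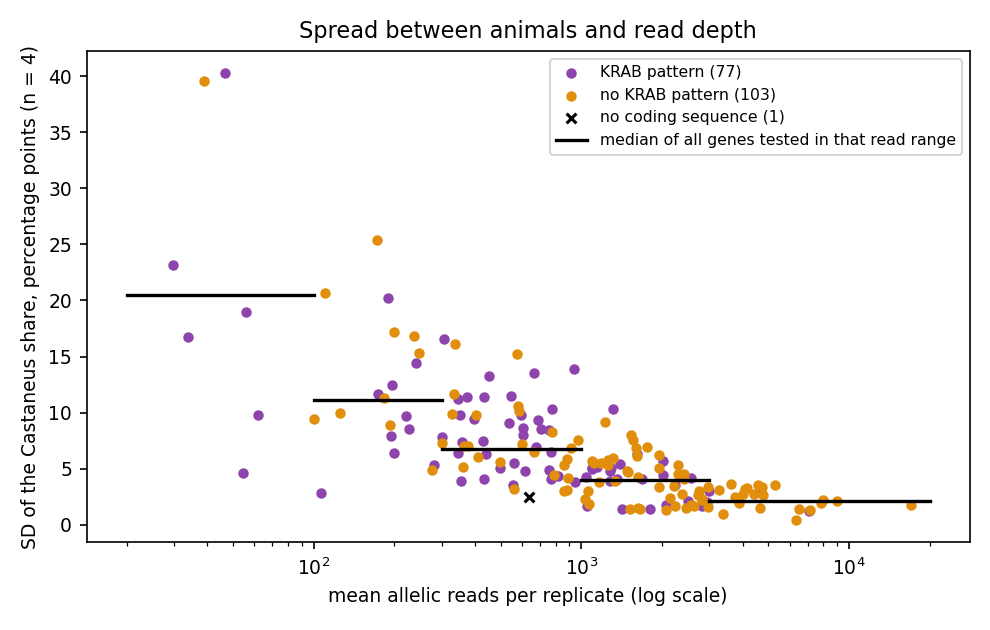
SD of the Castaneus share over 4 replicates, in percentage points, against mean allelic reads per replicate on a log axis, for the members with a KRAB pattern, those without it and Zfp783, which has no coding sequence. Black lines give the median of all genes past the minimums in each range of reads. Members fall around these lines in every range.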

How the data were processed

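Total RNA from 4 biological replicates was made into libraries with a stranded, rRNA-depleting kit, per the labels' protocols. The submitters' processing notes name STAR 2.7.1a, featureCounts and mm10. The authors deposited RPKM values per gene for both alleles together and whole-number counts of reads per gene and allele. The sources used here do not say how reads were assigned to an allele, how multiply matching reads were treated or whether strand was used.

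Members and lists were chosen with earlier results of these data known. Levels and Castaneus shares are means of replicates. Allele counts of the 10268 autosomal genes with at least 1 RPKM and 20 allelic reads were fitted with edgeR 4.0.16 (R 4.3.3), with terms for replicate and allele and the autosomal total of each allele as library size. Both alleles come from the same animal, which is what the replicate term pairs. Calls used Benjamini-Hochberg adjustment at an FDR of 5%. The fit was tested on simulated data. DESeq2 1.42.0 was an alternative.

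Positions and coding sequences came from GENCODE M21 (mm10). Fingers and KRAB boxes were found by pattern in the translated longest coding sequence, in place of a protein table as planned. A second KRAB pattern was added after the sequences were seen, raising the number of members with a KRAB pattern to 77, against 69 with the planned one. Named genes were the 10 highest by level, up to 10 called per direction with the largest ratios and 4 of 4 replicates agreeing, the 5 with the widest spread at 100 reads or more, members of clusters, those at the edges of the minimums and a list of well-studied members. Zfp677 and the other called members outside that rule were named after their values were seen.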

Additional observations from a re-analysis of the deposited data

Results flagged for a closer look

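For the 82 members named above, the level and the Castaneus share were each checked for a replicate far from the other 3, by Dixon's criterion at 95% for 4 samples. Of 164 sets of 4 values, 20 had such a replicate. For independent values chance gives about 1 in 20. Some of these genes were named for their spread or after their values were seen, so that rate need not hold for this set.

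For the Castaneus share, replicate 1 stood low in Zfp598 (47.9%, others 51.9 to 52.4%), Zfp292 (43.8%, others 51.0 to 52.4%) and Zfp143 (45.3%, others 51.4 to 52.3%). Replicate 2 stood low in Zfp106 (46.8%, others 49.9 to 50.4%) and Zfp398 (34.3%, others 44.9 to 46.1%). It stood high in Zfp605 (84.7%, others 63.1 to 66.8%), Zfp740 (61.5%, others 54.5 to 55.2%) and Zfp677 (50.2%, others 15.1 to 19.4%). Replicate 4 stood high in Zfp52 (46.8%, others 41.0 to 41.4%).

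For the level, replicate 1 stood low in Zfp110 (11.7 RPKM, others 14.2 to 14.7), Zfp236 (11.4 RPKM, others 14.5 to 15.1), Zfp407 (4.88 RPKM, others 5.49 to 5.60) and Zfp566 (0.982 RPKM, others 1.06 to 1.07). Replicate 2 stood high in Zfp189 (1.85 RPKM, others 1.36 to 1.43). Replicate 3 stood high in Zfp217 (15.7 RPKM, others 14.0 to 14.1), Zfp408 (8.72 RPKM, others 7.14 to 7.32), Zfp943 (2.51 RPKM, others 2.39 to 2.41) and Zfp984 (2.96 RPKM, others 2.55 to 2.62). It stood low in Zfp983 (1.38 RPKM, others 1.76 to 1.80). Replicate 4 stood high in Zfp53 (7.60 RPKM, others 6.41 to 6.48). The same replicate stood apart in both measures in none of these genes.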

How the results depend on the processing

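With 36 members called in all, 12 higher and 24 lower, DESeq2's Wald test called 55 (23 higher, 32 lower) and an FDR of 1% called 18 (8 higher, 10 lower). These were 30.4% and 9.9% of members, beside 37.1% and 17.8% of all genes. Without 1 replicate the number called lay between 18 and 40, those higher between 9 and 13 and those lower between 9 and 27, with the fewest without replicate 4 and the most without replicate 2. No call changed direction. Without the replicate block 26 were called (10 higher, 16 lower), all 26 shared with the 36. They were 14.4% of members, beside 20.5% of all genes. The block pairs the alleles of 1 animal. With TMM and with DESeq2 size factors 31 and 32 were called, 17.1% and 17.7% of members, beside 27.6% and 27.3% of all genes. These scalings moved the median log2 ratio of all genes by at most 0.05. Higher members numbered 13 with each, and lower ones 18 with TMM and 19 with DESeq2 factors. Of all genes, 14.4% were higher and 13.2% lower with TMM, and 14.1% and 13.3% with DESeq2 factors. With DESeq2's Wald test they were 18.8% and 18.3%. With an estimate of reads per molecule 47 were called, 26.0% of members, beside 34.1% of all genes. Among the 108 members without exon overlap and with under 10% shared 50-mers, 21 were called (19.4%), 4 of them higher. Dropping the RPKM minimum gave 276 members, with 37 called (13.4%), beside 22.9% of all genes. The median Castaneus share over members was between 47.9% and 48.6% without 1 replicate, the highest without replicate 3, against 47.6% with all. Joining starts within 250 or 1000 kb gave 15 or 19 clusters in place of 17. The cause of these differences was not tested. Of the 27 members with under 300 mean allelic reads 2 were called (7.41%), beside 14.0% of all genes at that depth.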

Other observations

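Zfp genes on the X chromosome were outside the set described above, which holds autosomal genes. In this cross the Xist deletion was carried by the C57BL/6 mothers. Of 7 such genes, Zfp275 had 12.9 ± 0.987 RPKM (SD, n = 4) and Zfp182 1.85 ± 0.179 RPKM (SD, n = 4), and the others were below 1 RPKM. Zfp275 had no Castaneus read among 1267, 1334, 1475 and 1356 allelic reads in replicates 1 to 4, which allows shares of up to 0.237, 0.225, 0.203 and 0.221%. Zfp182 had Castaneus shares of 2.50, 0, 3.65 and 0%. The 0 of 872 reads in replicate 2 allows up to 0.344% and the 0 of 760 in replicate 4 up to 0.395%. These limits, too, cover counting error only, since reads of 1 molecule are not independent. All 4 animals thus gave nearly all reads of both genes from the C57BL/6 allele, while every autosomal member with at least 100 allelic reads had Castaneus reads in each replicate.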
